A study of Mus musculus with 6 samples.

Results

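The genes described here are the collagens, the laminins and 6 further genes of the basement membrane (Nid1, Nid2, Hspg2, Agrn, Fn1 and Sparc), followed across the cell classes of the mouse brain. They were chosen by name alone, as every gene listed for both preparations whose symbol is that of a collagen chain or a laminin chain, plus those 6. The rule took 61 of the 27514 genes listed for both, 44 of them collagen chains and 11 laminin chains. All 61 carried the same symbol in both lists. Gene positions are those of GRCm38 (GENCODE M21).

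A basement membrane is a thin sheet of extracellular matrix that lies under endothelium and epithelium and around muscle and glial surfaces. Laminins, which are trimers of an alpha, a beta and a gamma chain, and type IV collagen each form a network, and nidogens and the proteoglycan perlecan (Hspg2) join the networks to each other. In brain vessels endothelial cells and pericytes share a vascular basement membrane, vascular smooth muscle cells (VSMCs) are wrapped in theirs, and astrocyte endfeet face the parenchymal one. Fibroblasts of the vessel wall and the meninges are known for fibrillar collagens such as types I and III.

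The study dissociated mouse brain tissue and measured gene expression in single cells by droplet sequencing (10x Chromium), counting unique molecular identifiers (UMIs) per gene and cell. The 2 groups used here are prep 1, the cortex of C57Bl/6J females aged 3 weeks, and prep 3, the hippocampus of C57Bl/6J females aged 5 weeks. All mice were perfused, and tissue was digested with dispase II, papain and DNase I and cleared of myelin on Percoll. In each preparation the cells of 3 mice were pooled and then run as 3 technical replicates, so there is 1 biological sample per group, no test was made, and the SDs given are over technical replicates. Region, age and preparation change together, and the gene lists differ (31053 genes for the cortex and 27998 for the hippocampus), so these cannot be told apart.

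The 6 libraries held 39662203 to 50024850 UMIs, and 13320 cortex and 14210 hippocampus cells were kept. Cells were clustered without the 61 genes, and clusters were called by the class their markers name, with "-like" understood throughout. Barcodes shared between libraries of the same preparation made up 0.533% of kept cells in the cortex and 5.27% in the hippocampus, where they reached 67.7% of epithelial, 40.1% of monocyte and 21.3% of ependymal cells, against at most 1.66% in the other hippocampal classes. Mixed clusters with markers of both endothelial cells and pericytes (187 cells in the cortex, 190 and 72 in the hippocampus) stayed unnamed and enter no class. Levels are given as CPM, the UMIs of a gene scaled to the total of all UMIs of the same cells, and 95% intervals (exact Poisson or binomial) cover counting error only. Because UMIs were read near the transcript's 3′ end, a level is compared between classes for the same gene and not between genes.

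Fibroblasts and pericytes devoted the largest shares of their UMIs to these genes. In the cortex the 61 genes made up 1.83% ± 0.627 of UMIs in fibroblasts (mean ± SD, n = 3 technical replicates; 54 cells), 1.53% ± 0.0808 in pericytes (130 cells), 0.808% ± 0.0258 in endothelial cells (2850 cells) and 0.712% ± 0.0236 in VSMCs (171 cells). In the hippocampus the order was the same, with 1.61% ± 0.0891 in fibroblasts (38 cells), 0.844% ± 0.0250 in pericytes (360 cells), 0.618% ± 0.00254 in endothelial cells (2035 cells) and 0.462% ± 0.0211 in VSMCs (86 cells). The SDs of cortex fibroblasts and pericytes overlapped, and those of the other neighbours in either order did not. The place of endothelial cells above VSMCs rested on Sparc. Without it VSMCs stood higher in the cortex, at 0.509% ± 0.0294 against 0.425% ± 0.0222 in endothelial cells. In the hippocampus these classes were then level, at 0.322% ± 0.0113 and 0.320% ± 0.00751. Microglia reached 0.412% in the cortex and 0.389% in the hippocampus, almost all of it Sparc, since their share without Sparc was 0.0265% and 0.0232%. Astrocytes gave 0.0638% and 0.0960%.

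**Figure D1:**
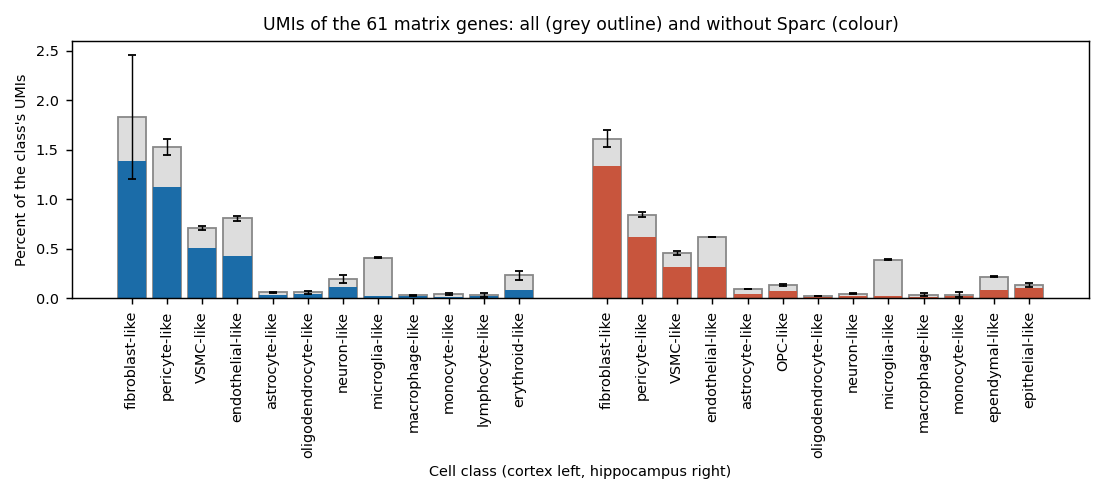
Percent of each class's UMIs that belonged to the 61 genes, cortex classes on the left and hippocampus classes on the right; grey outlined bars are means over 3 technical replicates for all 61 genes with error bars of 1 SD, and coloured bars are the means without Sparc. Fibroblasts and pericytes stood highest in both preparations, and the microglial bar fell from 0.412% to 0.0265% in the cortex once Sparc was taken out.

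To ask which class makes which gene, a gene was called led by the class of its highest CPM under set conditions. That CPM had to be at least 2-fold that of every other class in the pooled counts and in each technical replicate. The leading class also had to hold at least 30 UMIs of the gene. Genes with at least 30 UMIs in some class were counted. Of the 61 genes, 48 reached this minimum in the cortex and 49 in the hippocampus, 47 in both. Among the 11 that reached it in neither were Col2a1, Col10a1, Col17a1, Col19a1, Col22a1, Col24a1, Col28a1 and Lamb3. In the cortex 22 of 48 (45.8%) were led by a class, against 14.9% of all 14387 genes counted the same way. In the hippocampus 18 of 49 (36.7%) were, against 19.6% of 15307. The 4 vascular classes led 20 of these in the cortex (41.7% of 48, against 4.85% of all genes) and 15 in the hippocampus (30.6% of 49, against 4.36%). Fibroblasts alone led 16 (against 0.987% of all genes) and 12 (0.51%). Pericytes led 2 and 1 (0.855% and 0.771%), VSMCs 2 and 1 (1.22% and 1.04%), and endothelial cells 0 and 1 (1.79% and 2.04%). Without cortex replicate 2 pericytes led 4 genes in the cortex, and without cortex replicate 1 endothelial cells led 1. Outside the vessel wall, oligodendrocytes and microglia led 1 each in the cortex (2.39% and 1.46%), and in the hippocampus oligodendrocyte precursor cells (OPCs) led 1 (1.07%) and ependymal cells 2 (3.97%). Astrocytes led 0 of the genes in either preparation (3.2% and 1.74%), as did monocytes (0.89% and 1.1%), macrophages (0.257% and 0.627%) and neurons (1.56% and 2.77%). In the cortex lymphocytes (0.146%) and erythroid cells (0.132%) led 0, and in the hippocampus microglia (1.27%), oligodendrocytes (1.79%) and the epithelial class (0.928%) did. A lead needed 30 UMIs in the class, and lymphocytes held that many of 0 members, so their 0 was fixed beforehand. Macrophages held that many of 2 members in the cortex and 1 in the hippocampus, and monocytes of 2 in each. At a minimum of 100 UMIs fibroblasts led 7 genes in each preparation, and with every cell thinned to 1000 UMIs 2 in the cortex and 3 in the hippocampus. The 11 genes called in both preparations had the same leading class in both, and 33 of the 47 genes counted in both had the same highest class. The same shares over all genes were not computed. Among the 47, Col4a4, Col8a1, Col8a2, Col9a1, Col9a3, Col11a2 and Lama3 could not agree. Each was highest in an OPC, ependymal or epithelial class, which the hippocampus alone had.

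**Figure D2:**
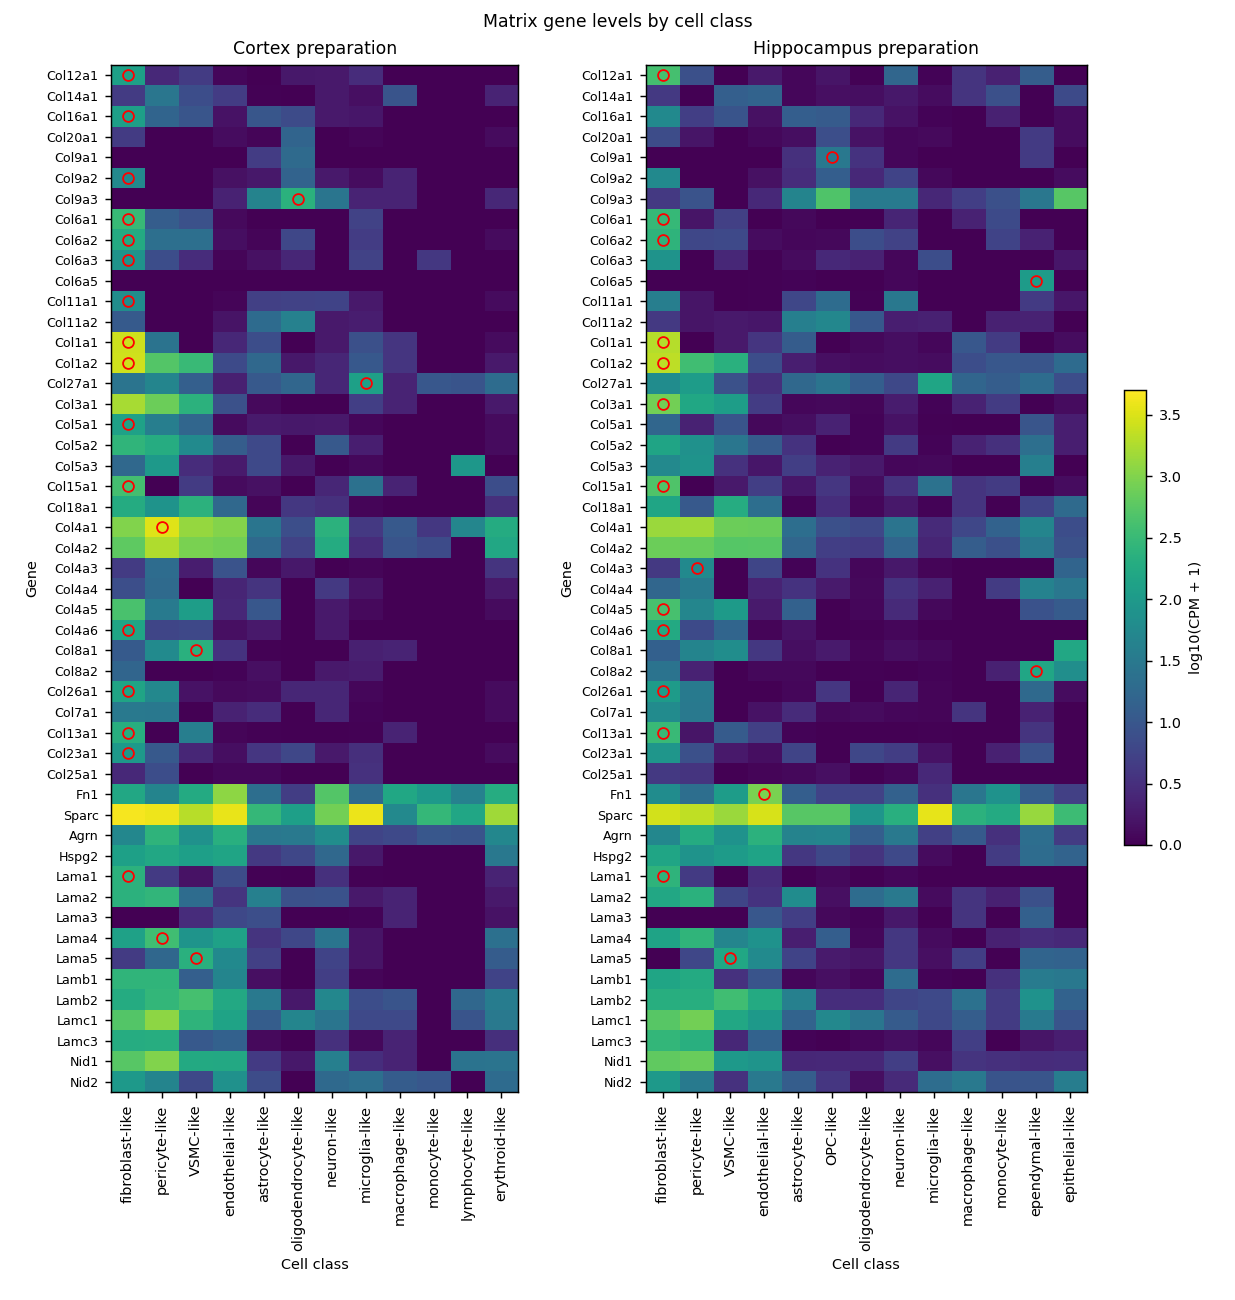
Levels of the matrix genes that reached 30 UMIs in a class of either preparation (rows) in each cell class (columns), with colour for log10(CPM + 1) from summed UMIs and a red circle on the class that led the gene. Circles gather in the fibroblast column, 16 in the cortex and 12 in the hippocampus, while the row of Sparc is bright in vascular classes and microglia.

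The main chains of type IV collagen, the network-forming collagen of all basement membranes, are encoded by Col4a1 and Col4a2, and in the cortex both were highest in pericytes. The genes lie head to head on chromosome 8 (GRCm38, 11198423 to 11312826 on the minus strand and 11312805 to 11449287 on the plus strand), so that the annotated 5′ ends overlap by 22 bases. Their RefSeq promoter windows (GRCm38.p6, 250 bases before to 50 after the transcript start) are shown because they are in part the same DNA. The 78 shared bases are in capitals, and the windows lie at chr8:11312777-11313076 (minus strand) and chr8:11312555-11312854 (plus strand).
Col4a1: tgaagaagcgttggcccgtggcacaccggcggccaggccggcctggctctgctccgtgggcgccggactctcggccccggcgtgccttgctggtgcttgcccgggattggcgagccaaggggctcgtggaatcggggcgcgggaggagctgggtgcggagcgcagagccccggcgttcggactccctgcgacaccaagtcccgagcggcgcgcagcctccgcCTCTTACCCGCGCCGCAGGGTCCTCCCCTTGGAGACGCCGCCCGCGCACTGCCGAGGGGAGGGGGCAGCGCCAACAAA
Col4a2: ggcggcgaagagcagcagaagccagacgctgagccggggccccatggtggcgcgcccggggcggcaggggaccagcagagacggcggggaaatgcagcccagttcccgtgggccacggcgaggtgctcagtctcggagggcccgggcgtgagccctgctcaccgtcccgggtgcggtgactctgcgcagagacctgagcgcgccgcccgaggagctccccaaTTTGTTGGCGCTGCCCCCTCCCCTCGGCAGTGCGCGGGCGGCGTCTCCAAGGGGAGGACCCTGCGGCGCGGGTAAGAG
GC made up 74.0% of the Col4a1 window and 73.7% of the Col4a2 window. On both strands the Col4a1 window held 1 match to GGGCGG, 1 to CCAAT and 0 to TATAAA, and the Col4a2 window 3, 1 and 0. For comparison, 35.7% of all 32851 windows held GGGCGG, 37.4% CCAAT and 13.6% TATAAA. Among the 49 windows found for 44 of the 61 genes, 30 (61.2%), 15 (30.6%) and 5 (10.2%) did.

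In cortex pericytes Col4a1 stood at 3267, 3411 and 3254 CPM in the 3 replicates, and in hippocampus pericytes at 1479, 1552 and 1432 CPM. Endothelial cells gave 1035, 1044 and 976 CPM in the cortex and 739, 708 and 731 CPM in the hippocampus. Every pericyte replicate was above every endothelial one in the same preparation. In the cortex pericytes led Col4a1, 2.50-fold (95% interval 2.36 to 2.65) over VSMCs, the next class. In the hippocampus fibroblasts came close, at 1414 against 1487 CPM, and no class led. Col4a2 ran alongside, at 1792 CPM in pericytes, 890 in VSMCs, 811 in endothelial cells and 614 in fibroblasts of the cortex, and at 698, 537, 548 and 737 CPM in the same classes of the hippocampus. Across classes, log2(CPM + 1) of the pair correlated at r = 0.907 over 12 classes in the cortex and 0.988 over 13 in the hippocampus, a description over classes that share libraries and free RNA. In microglia Col4a1 was at 3.11 and 1.79 CPM, and 0.277% and 0.154% of microglia had a Col4a1 UMI after every cell was thinned to 1000 UMIs, against 89.2% and 73.2% of pericytes (1.40% and 1.13% against 97.7% and 89.4% unthinned; median depths 5466 and 6647 UMIs in microglia, 4296.5 and 4574.5 in pericytes).

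The other pairs of type IV chains are named here after their values were seen where a gene falls outside the rule for named genes. Col4a5 and Col4a6, on the X chromosome with 1308 bases between them, were highest in fibroblasts. Their windows are shown to set against the shared one, with the matches to the same motifs in capitals, at chrX:141475169-141475468 (plus strand) and chrX:141474027-141474326 (minus strand).
Col4a5: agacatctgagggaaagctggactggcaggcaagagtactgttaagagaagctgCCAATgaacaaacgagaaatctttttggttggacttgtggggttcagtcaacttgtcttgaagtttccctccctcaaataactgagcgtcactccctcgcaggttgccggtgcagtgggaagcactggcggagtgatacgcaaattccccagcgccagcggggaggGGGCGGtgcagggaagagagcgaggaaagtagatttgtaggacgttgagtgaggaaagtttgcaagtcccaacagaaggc
Col4a6: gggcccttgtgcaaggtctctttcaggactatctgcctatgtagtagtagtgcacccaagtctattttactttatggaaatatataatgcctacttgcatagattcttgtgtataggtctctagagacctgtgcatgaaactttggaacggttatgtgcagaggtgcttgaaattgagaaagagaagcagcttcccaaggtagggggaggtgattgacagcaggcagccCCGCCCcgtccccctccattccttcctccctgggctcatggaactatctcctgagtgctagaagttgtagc
The Col4a5 window, with 52.7% GC, held 1 match to GGGCGG, 1 to CCAAT and 0 to TATAAA, and the Col4a6 window, with 48.3% GC, 1, 0 and 0. Col4a5 reached 239, 442 and 556 CPM in cortex fibroblasts and 478, 490 and 336 CPM in hippocampus fibroblasts, and Col4a6 123, 143 and 164 CPM and 222, 182 and 157 CPM. VSMCs came next for both, at 115 and 102 CPM for Col4a5 and 5.40 and 15.3 CPM for Col4a6, whereas endothelial cells had 1.58 and 0.853 CPM of Col4a5. Fibroblasts led Col4a6 in both preparations, 27.2-fold (14.5 to 56.6) and 11.7-fold (6.84 to 20.8), and Col4a5 in the hippocampus, 4.13-fold (3.22 to 5.31). Without cortex replicate 3 the log2 ratio of Col4a6 in the cortex was 4.17 in place of 4.77. In the cortex Col4a5 was 3.79-fold higher in fibroblasts without holding 2-fold in each replicate. Across classes this pair correlated at r = 0.923 and 0.881. Col4a3 and Col4a4, whose products join Col4a5 in the basement membrane of the kidney glomerulus, are 71 bases apart on chromosome 1 and were low throughout. Pericytes led Col4a3 in the hippocampus with 69.0, 54.9 and 45.1 CPM, 3.81-fold (2.61 to 5.63) over the epithelial class, and their cortex level was 19.6 CPM from 12 UMIs. Col4a4 was highest in ependymal cells of the hippocampus, at 42.2 CPM against 30.9 CPM in pericytes, whose replicates overlapped. In the cortex Col4a3 and Col4a4 were both highest in pericytes, Col4a4 at 18.0 CPM from 11 UMIs. For this pair r was 0.689 and 0.569.

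Each laminin alpha chain, the chain that sets which receptors a laminin binds, had its own distribution. Lama1 (chromosome 17, 67697259 to 67822647) was led by fibroblasts, with 203, 255 and 254 CPM in cortex and 222, 245 and 284 CPM in hippocampus fibroblasts. This was 38.4-fold (30.3 to 48.6) over endothelial cells in the cortex and 79.9-fold (32.9 to 253) over pericytes, from 5 UMIs, in the hippocampus. A Lama1 UMI was found in 22.2% and 15.8% of fibroblasts thinned to 1000 UMIs and in 0 of 2545 and 0 of 1846 astrocytes (74.1% and 68.4% of fibroblasts unthinned). Lama2, best known from the basement membrane of muscle, was shared by pericytes, at 298, 282 and 248 CPM in the cortex and 191, 252 and 233 CPM in the hippocampus, and fibroblasts, at 240 and 163 CPM. Astrocytes, whose endfeet meet the parenchymal basement membrane, had Lama2 at 43.2, 42.9 and 34.6 CPM in the cortex and 63.7, 62.8 and 60.2 CPM in the hippocampus. Those replicates do not overlap between preparations, but the ratio stayed under 2-fold. Endothelial cells had 2.54 and 2.49 CPM of Lama2.

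Lama4, the alpha chain of the main endothelial laminin together with that of Lama5, was higher in pericytes than in endothelial cells. Its pericyte replicates were 376, 353 and 370 CPM in the cortex and 256, 291 and 250 CPM in the hippocampus, against 127, 137 and 124 CPM and 71.5, 70.6 and 84.4 CPM in endothelial cells. Pericytes led it in the cortex, 2.81-fold (2.16 to 3.69) over fibroblasts. Lama5 was led by VSMCs in both preparations, at 218, 206 and 234 CPM and 145, 154 and 172 CPM, 3.95-fold (3.54 to 4.40) and 2.71-fold (2.31 to 3.17) over endothelial cells. In pericytes Lama5 was at 16.4 CPM (10 UMIs) and 5.15 CPM (8 UMIs), and in fibroblasts at 3.38 and 0 CPM. Lama3, a chain of epithelial anchoring laminins, did not pass 12.8 CPM in any class.

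Beta and gamma chains also differed in the classes that held them. Lamb1 was at 265 CPM in pericytes and 262 CPM in fibroblasts of the cortex and at 180 and 150 CPM in the hippocampus. Lamb2, the beta chain of synaptic and smooth muscle laminins, was highest in VSMCs, at 411 and 366 CPM, and no class led it. Lamc1, the gamma chain of most laminins, reached 1117, 1204 and 1165 CPM in cortex and 795, 937 and 737 CPM in hippocampus pericytes, with fibroblasts next at 504 and 549 CPM. Lamc3 was about level in pericytes and fibroblasts, at 203 and 194 CPM in the cortex and 216 and 282 CPM in the hippocampus, and at or under 13.5 CPM in endothelial cells and VSMCs. Lamb3, a chain of epithelial laminins, stayed under the UMI minimum in both preparations.

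Nidogen-1 (Nid1), which links the laminin network to type IV collagen, followed Lamc1, with 1060, 993 and 984 CPM in cortex pericytes, 720, 725 and 680 CPM in hippocampus pericytes, and 544 and 630 CPM in fibroblasts. Nid2 was highest in fibroblasts, at 98.1 and 100.3 CPM, although its hippocampus fibroblast replicates ran from 17.1 to 149 CPM. Microglia had Nid2 at 21.5 and 19.7 CPM. The proteoglycans were spread over the vascular classes. Hspg2 lay between 122 and 162 CPM in all 4 vascular classes of the cortex and between 78.5 and 147 CPM in those of the hippocampus. Agrn, agrin, which also organises synapses and astrocyte endfeet, was at 212 and 237 CPM in endothelial cells and 257 and 185 CPM in pericytes, with 28.0 and 44.9 CPM in astrocytes.

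Fibronectin (Fn1), a glycoprotein that binds integrins and collagens, was highest in endothelial cells. It stood at 1245, 1188 and 1136 CPM in cortex and 932, 915 and 866 CPM in hippocampus endothelial cells, against 62.6, 40.3 and 36.1 CPM and 14.2, 26.5 and 20.7 CPM in pericytes. In the hippocampus endothelial cells led it, 8.25-fold (6.97 to 9.85) over VSMCs, the 1 gene they led there. In the cortex the neuron class had 631, 296 and 524 CPM of Fn1, and the endothelial level was 2.35-fold (2.18 to 2.55) higher without reaching 2-fold in each replicate. That class also held endothelial markers, which summed to 4234 CPM there and to 232 CPM in hippocampus neurons, where Fn1 was at 13.03 CPM. With cells left out whose own markers name another class, an alternative chosen after seeing the data, the log2 ratio of endothelial cells over the next class in the cortex was 2.64 in place of 1.23. A Fn1 UMI was found in 59.9% and 52.6% of endothelial cells thinned to 1000 UMIs and in 0.440% and 0.240% of microglia (93.9% and 91.1% against 1.70% and 1.51% unthinned; median depths 6715 and 6610 UMIs in endothelial cells).

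Sparc, a secreted protein that binds collagen and handles type IV collagen during basement membrane assembly, was high in every vascular class and in microglia. Microglia had 3806, 3910 and 3863 CPM in the cortex and 3618, 3642 and 3729 CPM in the hippocampus, next to 3902, 3797 and 3803 CPM and 2909, 2999 and 3042 CPM in endothelial cells. Cortex replicates of these classes overlapped, and in the hippocampus each microglial replicate was above each endothelial one. Macrophages, the other resident immune class, had 53.6 and 236 CPM. A Sparc UMI was found in 95.1% and 95.5% of microglia thinned to 1000 UMIs and in 3.16% and 8.09% of macrophages (98.9% and 99.9% against 15.5% and 16.3% unthinned; median depths 5638 and 4829 UMIs in macrophages). In the cortex fibroblasts had the most Sparc, at 2307, 6166 and 4786 CPM, a spread that covered pericytes, microglia and endothelial cells.

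The multiplexins, collagens that carry heparan sulfate or chondroitin sulfate and lie in vascular basement membranes, split between fibroblasts and VSMCs. Col15a1 was at 178, 330 and 553 CPM in cortex and 512, 403 and 546 CPM in hippocampus fibroblasts, which led it 16.9-fold (14.6 to 19.6) and 20.2-fold (16.97 to 24.0). Without cortex replicate 3 the log2 ratio in the cortex was 3.47 in place of 4.08. The next class was microglia, at 23.0 and 23.8 CPM, while pericytes had 0 UMIs of it in both preparations, which allows up to 4.91 CPM in the cortex and 1.93 CPM in the hippocampus. Col18a1 was at 229, 284 and 196 CPM in cortex and 209, 170 and 201 CPM in hippocampus VSMCs, close to fibroblasts, at 188 and 147 CPM.

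The fibrillar collagens of types I and III were highest in fibroblasts, with different ratios to the next class. Col1a1 reached 1602, 2707 and 3267 CPM in cortex fibroblasts and 2167, 1840 and 1988 CPM in hippocampus fibroblasts, 108-fold (65.5 to 194) and 176-fold (147 to 212) over the next class. Col1a2, whose product joins that of Col1a1 in type I collagen, reached 1798, 3018 and 3076 CPM and 2184, 2535 and 1682 CPM, only 5.31-fold (4.70 to 6.01) and 5.82-fold (5.20 to 6.52) over pericytes. Without cortex replicate 3 the log2 ratio of Col1a1 to the next class was 8.13 in place of 6.76. Replicate 1 was the lowest of the cortex fibroblast replicates for both. Pericytes held 18.8% and 17.2% of the fibroblast level of Col1a2 and 45.6% and 19.3% of that of Col3a1, but 0.923% and 0% of that of Col1a1. VSMCs, where Dcn was at 0 CPM in both preparations, held 11.98% and 10.5% of the fibroblast level of Col1a2, with 0 and 1 UMIs of Col1a1. Dcn, a fibroblast marker, was at 14.7 and 21.9 CPM in pericytes against 5045 and 6087 CPM in fibroblasts. The part of fibroblast RNA in the pericyte levels was not tested. Fibroblasts led Col3a1 in the hippocampus, 5.17-fold (4.32 to 6.18), and in the cortex it was 2.20-fold over pericytes without reaching 2-fold in each replicate.

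Col5a3, a minor chain of type V collagen, was instead highest in pericytes, at 110, 111 and 67.7 CPM in the cortex and 91.3, 62.4 and 82.7 CPM in the hippocampus. Cortex fibroblasts had 16.9 CPM and hippocampus fibroblasts 53.3 CPM. The lymphocyte class of the cortex had 89.7 CPM, from 11 UMIs in 27 cells, spread over replicates as 15.9, 206 and 131 CPM.

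Among the remaining collagens fibroblasts led, in both preparations, Col6a1 and Col6a2 of the beaded microfibrils, Col12a1, which decorates fibrils, the transmembrane collagen Col13a1, and Col26a1. Called in the cortex alone were Col6a3, Col9a2, Col11a1, Col16a1, Col23a1 and Col5a1. Col6a1 had 227, 299 and 362 CPM in cortex and 358, 292 and 292 CPM in hippocampus fibroblasts, against 11.4 CPM in cortex pericytes and 5.75 CPM in hippocampus monocytes, the next classes. In the hippocampus fibroblasts were also the highest class for the genes called in the cortex alone. There they held 25 UMIs of Col6a3, 18 of Col9a2, 12 of Col11a1, 18 of Col16a1, 28 of Col23a1 and 5 of Col5a1. All were under the 30 UMIs that a lead needed, so no call was possible. Col8a1, a network collagen of vessel walls, was led by VSMCs in the cortex, at 268, 175 and 215 CPM, 3.86-fold (2.73 to 5.61) over pericytes, a log2 ratio of 1.95 that was 2.87 without cortex replicate 3. In the hippocampus the epithelial class had the most Col8a1, at 175, 100.1 and 203 CPM, and VSMCs 64.0, 74.9 and 50.2 CPM.

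Some of the genes were led by glial and ventricular classes. Beside the shares over all genes given above, these counts are not read as particular to the members. Microglia led Col27a1, a fibrillar collagen of cartilage, in the cortex, at 133, 126 and 120 CPM, 2.66-fold (1.85 to 3.98) over pericytes. In the hippocampus it was at 148, 147 and 154 CPM, 1.35-fold over pericytes. Among the type IX chains, which decorate cartilage fibrils, Col9a1 and Col9a3 were each led by a class of the oligodendrocyte lineage in 1 preparation, whereas Col9a2 was highest in fibroblasts, at 54.1 and 56.4 CPM. The OPC class of the hippocampus was mixed, with oligodendrocyte markers summing to 24707 CPM, erythroid markers to 18404 CPM and microglial markers to 4727 CPM beside 3492 CPM of OPC markers, and Mog, an oligodendrocyte marker, at 186 CPM beside Pdgfra at 231 CPM. The part of the other cells' RNA in its levels was not tested. This class led Col9a1 at 29.1 CPM, 9.12-fold (3.82 to 28.5), and had Col9a3 at 439, 499 and 472 CPM. The cortex oligodendrocyte class, which also held OPC markers (Pdgfra at 111 CPM), led Col9a3 at 168, 289 and 237 CPM, 5.23-fold (4.57 to 5.97) over astrocytes. The epithelial class of the hippocampus had Col9a3 at 544, 474 and 630 CPM, 1.17-fold (1.10 to 1.25) the OPC level. Col11a2 was highest in the OPC class, at 51.4 CPM, and in astrocytes, at 38.8 CPM, of the hippocampus.

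Ependymal cells, the ciliated lining of the ventricles that was named in the hippocampus alone, led 2 genes. Col6a5, a chain of type VI collagen, was at 116, 110 and 91.1 CPM there, and no other class had more than 1 UMI, the next being neurons at 0.178 CPM (ratio interval 106 to 23753, and a log2 ratio of 8.60 without hippocampus replicate 1). Col8a2, a network collagen of the corneal endothelium, was at 182, 130 and 145 CPM, 2.33-fold (1.92 to 2.83) over the epithelial class. Without the barcodes shared between libraries 166 of 211 ependymal and 266 of 824 epithelial cells were left, and the log2 ratio to the next class was 9.24 in place of 9.22 for Col6a5 and 1.15 in place of 1.22 for Col8a2. For Col9a3 the log2 ratio of the epithelial class to OPCs was 0.22 in place of 0.23, and for Col8a1, over VSMCs, 1.34 in place of 1.36.

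Endothelial cells and pericytes share a basement membrane, so their levels were set against each other. A gene was counted when the ratio of pooled levels passed 2-fold and every replicate lay on the same side, among genes with at least 30 UMIs in both classes together. In the cortex 21 of 33 members (63.6%) were higher in pericytes and 4 (12.1%) in endothelial cells, against 14% and 19% of all 11727 genes. In the hippocampus 18 of 34 (52.9%) were higher in pericytes and 8 (23.5%) in endothelial cells, against 14.3% and 18.2% of 11518. With a 10% limit on mitochondrial UMIs 1 and 5 genes were counted on the endothelial side. The whole interval lay past 2-fold for 20 and 17 of the pericyte genes and for 1 and 4 of the endothelial genes. The median log2 ratio of endothelial cells over pericytes was -2.59 and -2.03 over the members and -0.05 and -0.02 over all genes.

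On the pericyte side stood Col5a3 (log2 ratio -6.83 in the cortex and -6.90 in the hippocampus), Lama2 (-6.76 and -6.50), Col3a1 (-6.67 and -5.45) and Col1a2 (-6.48, and -7.11 without cortex replicate 2, and -5.79). The shared laminin chains followed, with Lamc3 at -3.97 and -4.00, Lamc1 at -3.04 and -3.11 and Lamb1 at -2.51 and -4.49, then Nid1 at -2.59 and -3.12. Lama4 (-1.50 and -1.82), Col4a1 (-1.70 and -1.03) and Col4a2 (-1.14 and -0.35) had smaller ratios, and Col4a2 did not pass 2-fold in the hippocampus. Col26a1 had 0 UMIs in hippocampus endothelial cells, so its pericyte level was at least 163-fold higher than the level of 3 UMIs there, and in the cortex its log2 ratio was -7.71.

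On the endothelial side Fn1 had a log2 ratio of 4.70 (95% interval 4.17 to 5.29) in the cortex and 5.46 (4.96 to 6.01) in the hippocampus, and Lama5 of 1.77 (0.88 to 2.83) and 3.48 (2.50 to 4.70). Genes with 0 UMIs in pericytes made up 2 of the 4 cortex and 4 of the 8 hippocampus genes. Against the level that 3 UMIs would give in pericytes, Col14a1 was at least 7.31-fold and Lama3 at least 4.66-fold higher in hippocampus endothelial cells. In the cortex pooled Col14a1 was instead higher in pericytes, at 27.8 CPM (17 UMIs) against 3.54 CPM (log2 ratio -2.97). Not every replicate lay on that side. For Col9a3 and Lama3 in the cortex and Col15a1 and Col1a1 in the hippocampus the endothelial level was 0.255 to 1.97 times that level, so a 2-fold difference was not detectable at this depth. Col18a1 (1.11) and Col13a1 (2.64, from 1 UMI in pericytes) were the remaining endothelial genes of the hippocampus. Endothelial markers summed to 1782 CPM in cortex and 1234 CPM in hippocampus pericytes, against 27065 and 29671 CPM in endothelial cells, and their part in the pericyte levels was not tested.

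**Figure D3:**
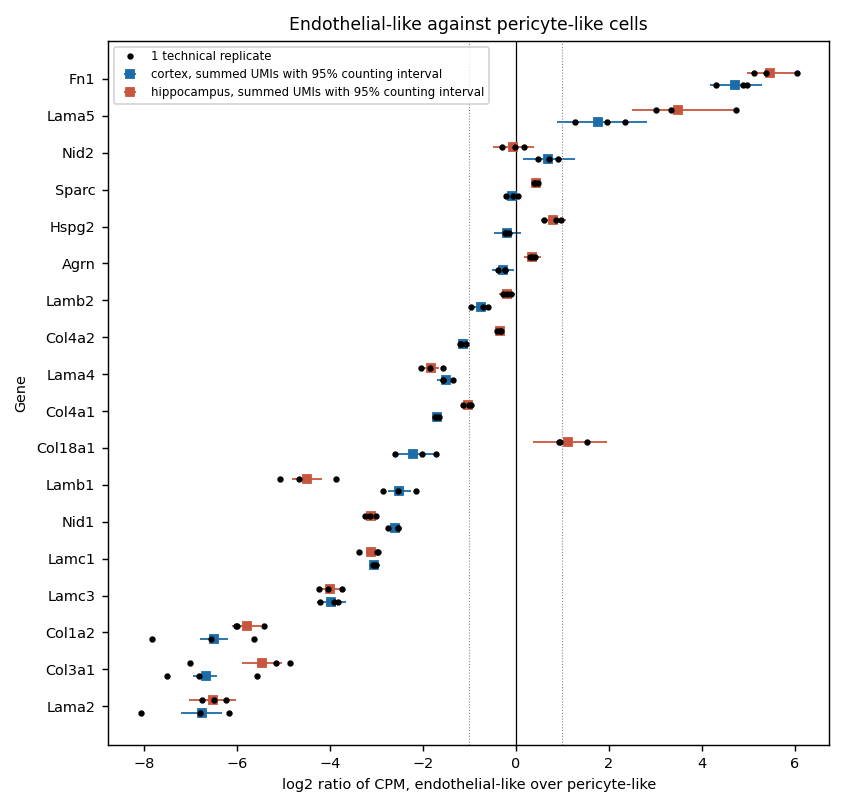
log2 ratio of CPM in endothelial over pericyte cells for basement membrane genes and fibrillar collagens; squares are pooled UMIs with 95% counting intervals (cortex blue, hippocampus red), black points single technical replicates and dotted lines 2-fold. Fn1 (4.70 and 5.46) and Lama5 lie to the right, on the endothelial side, and Lama2, Col3a1 and Col1a2 farthest to the left.

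Within the endothelium, clusters named by segment markers held different matrix genes. In the cortex 296 arterial, 63 venous and 257 angiogenic cells were named and 2234 stayed unnamed, and in the hippocampus 588 arterial and 256 venous cells were named and 1191 stayed unnamed, with no angiogenic cluster. Segment clusters were formed without the 61 genes. Median depth was 13388 UMIs in angiogenic and 6231.5 in unnamed cells of the cortex. Angiogenic cells of the cortex led 6 of 26 members, where they led 1.14% of all genes. These were Lamb1 at 227, 280 and 283 CPM, 31.5-fold over the next segment, Col4a3 (5.10-fold), Nid2 (4.17-fold), Nid1 (3.49-fold), Lama4 (3.32-fold) and Lamc1 (2.33-fold). Arterial cells led 4 members in the cortex (1.33% of all genes) and 3 in the hippocampus (1.48%). Col18a1 was at 103, 126 and 116 CPM in cortex and 56.4, 62.1 and 60.2 CPM in hippocampus arterial cells, 21.6-fold and 29.5-fold over the next segment, and Col14a1 and Col8a1 were also led in both. Col3a1 was led in the cortex alone, with 51.6, 60.7 and 23.6 CPM. Col4a1 was at 1588, 1764 and 1665 CPM in angiogenic cells, above arterial cells at 1249, 1192 and 1215 CPM, without reaching 2-fold. Fn1 was highest in venous cells, at 1950, 1507 and 1410 CPM in the cortex and 1431, 1457 and 1327 CPM in the hippocampus, and lowest in arterial cells, at 773, 895 and 810 CPM and 660, 607 and 620 CPM. Unnamed endothelial cells of the hippocampus led Col4a3 (9.35-fold) and Col13a1 (6.21-fold), against 0.849% of all genes, and venous cells led 0 members in either preparation (0.534% and 0.449%). Over all segments 3.69% of genes in the cortex and 2.78% in the hippocampus were led.

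**Figure D4:**
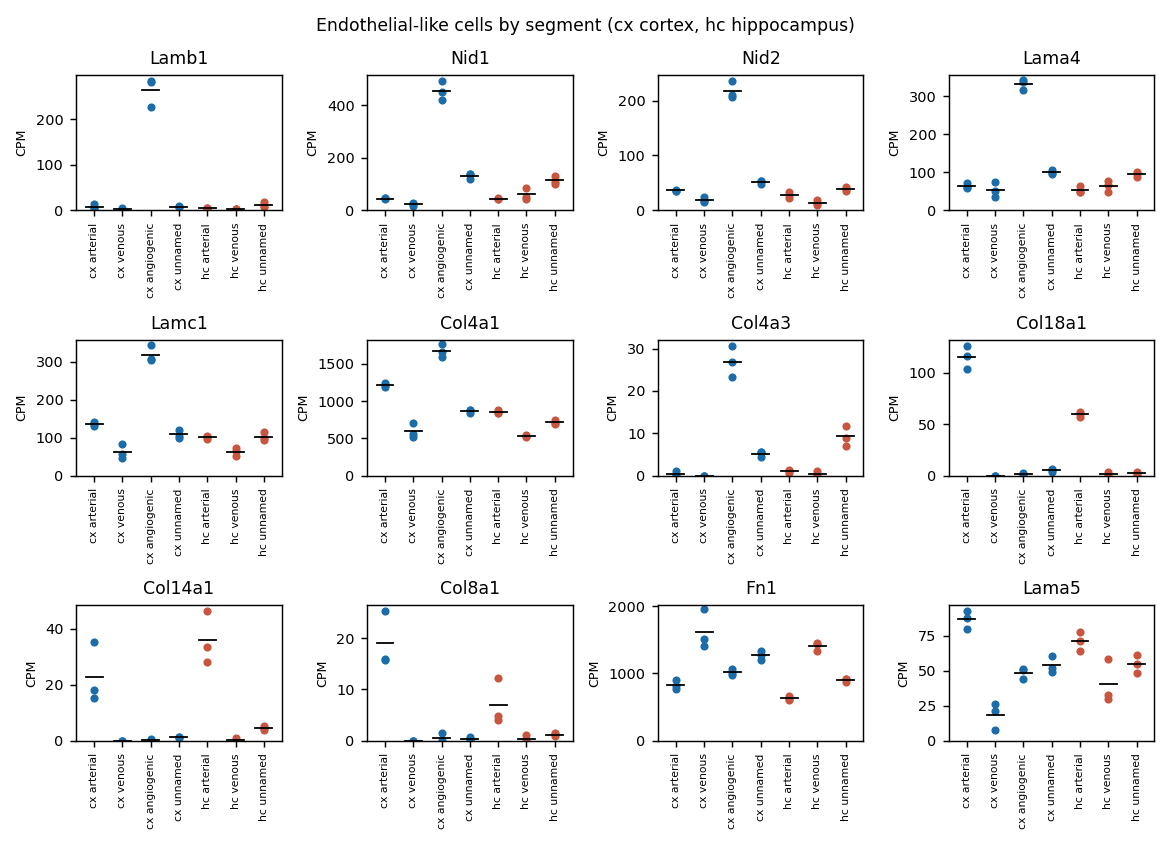
CPM of genes led by an endothelial segment, and of Col4a1, Fn1 and Lama5, in the arterial, venous, angiogenic and unnamed endothelial cells of the cortex (cx) and hippocampus (hc); points are technical replicates and short lines their mean, each gene on its own linear axis. Lamb1 and the nidogens stand out in angiogenic cells of the cortex, and Col18a1 in arterial cells of both preparations.

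Between the preparations a gene was counted when the ratio passed 2-fold and all replicates of one preparation lay above all of the other, among genes with at least 30 UMIs in both together. The endothelial cells of the hippocampus had more of 3 members and less of 5, of 33 counted (9.09% and 15.2%, against 3.43% and 2.87% of all 12281 genes, 6.29% in either direction). Col13a1 was at 0, 0.244 and 0.132 CPM in the cortex and 6.70, 3.11 and 2.05 CPM in the hippocampus, Col15a1 had a log2 ratio of 3.71, and Col14a1 of 1.99. Col14a1 was led by arterial cells in both preparations, and these were 10.4% of endothelial cells in the cortex and 28.9% in the hippocampus. The part of this in the Col14a1 ratio was not tested. Without cortex replicate 2, the ratio of Col15a1 was 4.91 and that of Col13a1 5.98 in place of 5.00. Lower in the hippocampus were Lamb1 (log2 ratio -2.54), Lama1 (-1.72), Nid2 (-1.27), Col7a1 (-1.25) and Nid1 (-1.04). Lamb1, Nid1 and Nid2 are genes of the angiogenic cells that only the cortex held as a cluster. With those 257 cells left out, chosen after seeing the data, Lamb1 was at 7.87 CPM in the cortex and 8.01 in the hippocampus (log2 ratio 0.025), Nid1 at -0.50 and Nid2 at -0.65. Lama1 was then at -1.94, and Col15a1 rose to 5.27, from 2 cortex UMIs in place of 7. Col7a1 fell under the minimum of 30 UMIs. As the cells left out led Lamb1, Nid1 and Nid2 in these same data, lower cortex levels of these genes followed by construction. The part of angiogenic cells in the differences was not tested.

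Pericytes of the hippocampus had less of 7 members and more of 2, of 26 (26.9% and 7.69%, against 2.8% and 3.53% of all genes, 6.33% in either direction). The whole interval lay past 2-fold for 4 of the 7 and for 0 of the 2. Among those lower were Col4a1 at a log2 ratio of -1.15, Col4a2 at -1.36, Hspg2 at -1.04 and Fn1 at -1.15. Fn1 rests on 28 pericyte UMIs in the cortex and 32 in the hippocampus. Cldn5, an endothelial marker, was at 139 and 68.9 CPM in these pericytes, against 8377 and 7744 CPM in endothelial cells. The part of endothelial RNA in the Fn1 ratio was not tested. Col3a1 was at 334, 1199 and 691 CPM in the cortex and 160, 174 and 139 CPM in the hippocampus (log2 ratio -2.24), and Col5a2 had a ratio of -1.36. Col18a1 was at 47.0, 116 and 72.2 CPM in the cortex and 10.1, 11.4 and 7.52 CPM in the hippocampus (log2 ratio -3.02, interval -3.97 to -2.16). Cortex pericytes also held more VSMC markers, 3949 against 1969 CPM in sum, with Acta2 at 636 against 32.2 CPM and at 23738 and 23204 CPM in VSMCs, and the part of this in the Col18a1 difference was not tested. Higher in hippocampus pericytes were Col4a3 (1.51, and 2.21 without cortex replicate 2) and Col27a1 (1.22).

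VSMCs of the hippocampus had less of 6 members and more of 0, of 23 (26.1% and 0%, against 2.51% and 1.71% of all genes, 4.22% in either direction). Of these Col8a1 alone, with 268, 175 and 215 CPM in the cortex and 64.0, 74.9 and 50.2 CPM in the hippocampus (log2 ratio -1.79), lay past 2-fold over its whole interval. The others were Lama2 (-2.02), Col6a2 (-1.94), Col13a1 (-1.85), Col5a2 (-1.08) and Col3a1 (-1.06). With a 10% limit on mitochondrial UMIs the ratio of Lama2, which rests on 6 UMIs in the hippocampus, turned to 1.05, and without hippocampus replicate 1 that of Col6a2 was -3.15. Beside these genes, pericyte markers in VSMCs summed to 3842 CPM in the cortex and 2427 CPM in the hippocampus, and endothelial markers to 1305 and 755 CPM, and their part in the differences was not tested. Fibroblasts differed in 4 of 36 members (2 in each direction, 5.56%, against 3.98% higher in the hippocampus and 2.1% lower over all genes, 6.08% together). Col12a1 was at 123, 143 and 119 CPM in the cortex and 392, 363 and 456 CPM in the hippocampus (log2 ratio 1.68, interval 1.26 to 2.11), Col27a1 had a ratio of 1.31, Col5a1 of -3.07 (5 UMIs in the hippocampus, and -4.67 without hippocampus replicate 2) and Col16a1 of -1.09. Medians over the counted members were -0.11 in endothelial cells, -0.49 in pericytes, -0.73 in VSMCs and 0.02 in fibroblasts, next to 0.15, 0.05, 0.05 and 0.12 over all genes.

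**Figure D5:**
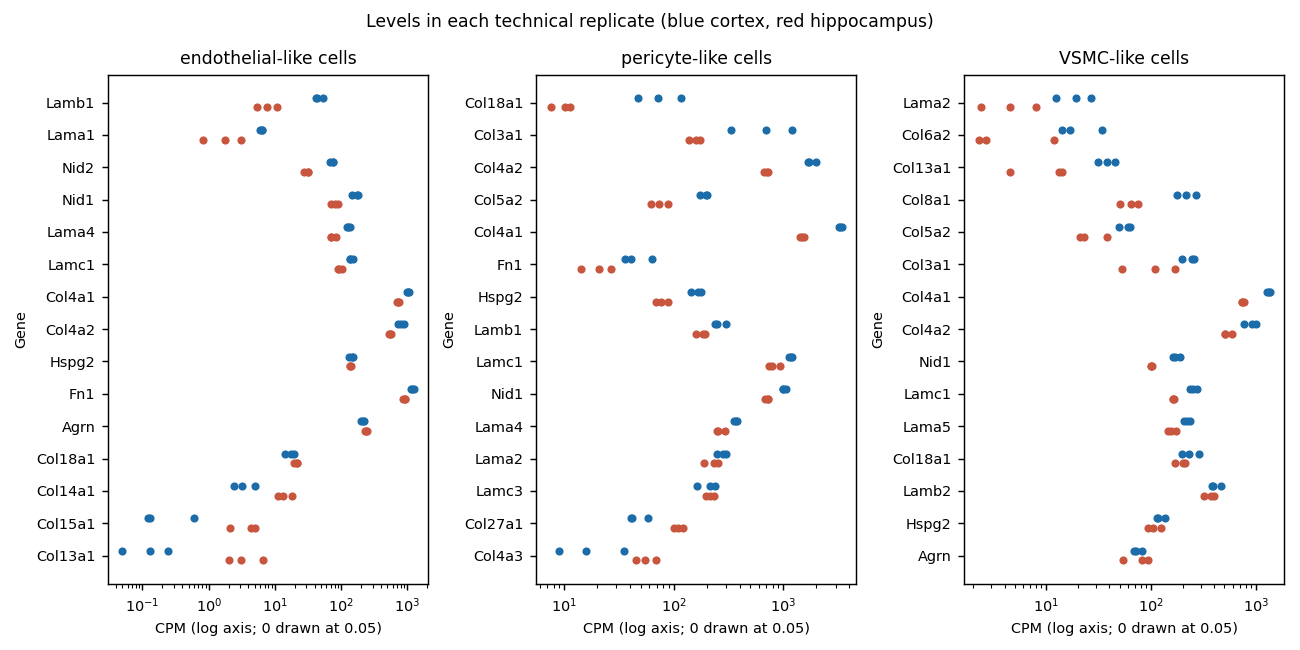
CPM (log axis, 0 drawn at 0.05) in each technical replicate of endothelial cells, pericytes and VSMCs, cortex in blue and hippocampus in red, for members counted as different and for basement membrane genes. The colours separate for Lamb1 in endothelial cells, Col18a1 and Col4a1 in pericytes and Col8a1 in VSMCs.

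Astrocytes of the hippocampus had more of 2 and less of 2 of 29 members (6.90% each, against 6.14% and 3.32% of all genes, 9.47% together), namely Col11a2 (log2 ratio 1.05) and Col9a2 (1.43), and Col1a2 (-4.01, and -4.92 without hippocampus replicate 3) and Col5a2 (-1.20). Oligodendrocytes had more of 1 and less of 6 of 20 (5% and 30%, against 6.18% and 10.4%, 16.6% together), led by Col20a1 (-4.86), Col9a3 (-2.88) and Col9a1 (-2.87), beside Pdgfra, an OPC marker, at 111 CPM in the cortex class and 0.128 CPM in the hippocampus class, and the part of this was not tested.

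Microglia of the hippocampus had less of 14 and more of 1 of 30 members (46.7% and 3.33%, against 4.83% and 3% of all genes, 7.83% together). Sparc, Col27a1, Col15a1 and Nid2 were not among them. The count fell from 15 to 4 at a cluster resolution of 0.2 and to 1 at a resolution of 1.0, and it was 1 at a 10% limit on mitochondrial UMIs and 1 with cells thinned to 1000 UMIs. Those lower in the hippocampus included Col1a1 (7.003 CPM in the cortex and 0.172 in the hippocampus), Col1a2, Col3a1 and Col6a1, beside the fibroblast markers, which summed to 39.2 CPM in cortex and 7.98 CPM in hippocampus microglia with 1 and 3 of 12 at 0. With cells left out whose own markers name another class (6140 and 5831 cells left) 5 members differed, Fn1 at -1.72, Col6a2 at -5.43, Col1a1 at -2.41, Col4a4 at 1.07 and Col9a3 at 1.08. The clusters named by neuron markers were less alike. In the cortex neuron markers summed to 2919 CPM there, below monocyte (5585 CPM), erythroid (5246 CPM) and endothelial (4234 CPM) markers, and in the hippocampus to 7736 CPM. Between these clusters the hippocampus had less of 10 and more of 4 of 18 (55.6% and 22.2%, against 9.05% and 20.3%, 29.4% together), and 0 and 4 once cells whose own markers name another class were left out (78 and 468 cells left). With those cells left out, the 4 higher in the hippocampus were Col11a1, at 30.4 against 9.25 CPM, and Lama2, at 32.0 against 1.54 CPM. The others were Col12a1, at 17.2 against 1.54 CPM, and Lamb1, at 20.9 against 0 CPM. Their cortex levels rest on 6, 1, 1 and 0 UMIs, in the order given. After this filter fewer members reached the UMI minimum, both in microglia and in the neuron clusters. Shares over all genes under the filter were not computed, so the filtered counts are not read as particular to the members.

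In macrophages 3 members could be counted, Sparc at 26.3, 73.0 and 48.0 CPM in the cortex and 186, 296 and 184 CPM in the hippocampus (log2 ratio 2.14), Nid2 (1.48) and Fn1 (-2.54), so that 2 were higher and 1 lower in the hippocampus, against 8.42% and 4% of all genes, 12.4% together. Microglial markers summed to 3617 CPM in cortex and 7786 CPM in hippocampus macrophages, with P2ry12 at 135 and 439 CPM, and their part in the Sparc difference was not tested. Fn1 replicates of macrophages spread widely, from 110 to 216 CPM in the cortex and from 0 to 56.4 CPM in the hippocampus. In monocytes 0 of 2 members differed (9.5% and 13.1% of all genes, 22.6% together).

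Other genes that build, bind or remodel this matrix were followed as a list of 60, of which 58 in the cortex and 57 in the hippocampus reached the UMI minimum, and 19 and 14 were led by a class (14.9% and 19.6% of all genes). Dcn, Lum and Pcolce, which served to name fibroblasts, are among those 19 and 14, and their lead was set by that naming. The 19 and 14 are therefore not read against the shares over all genes. Without these markers fibroblasts led 3 genes of the list in the cortex and 0 in the hippocampus. Endothelial cells led Egfl7, Vwa1 and the hemicentin Hmcn1 in both preparations. Vwa1, a partner of perlecan, was at 940 and 1079 CPM there, 3.66-fold and 2.89-fold over fibroblasts. Pericytes led the collagen-binding integrin Itga1 in both, at 1838 and 528 CPM, and the peroxidase Pxdn, which crosslinks type IV collagen, in the cortex at 101 CPM. VSMCs led the netrin Ntn4, 11.03-fold and 30.1-fold, and the Lama5 receptor Bcam in both, and elastin (Eln) in the hippocampus. Fibroblasts led Loxl1, Mmp2 and fibrillin-1 (Fbn1) in the cortex. In the hippocampus fibroblasts, with 319027 UMIs in all, were again the highest class for these, at 47.0, 47.0 and 84.6 CPM, without a call. At that depth each of these levels is under 30 UMIs in the class, so no call was possible. The collagen chaperone Serpinh1 was highest in fibroblasts and pericytes, at 789 and 783 CPM in the cortex and 843 and 654 CPM in the hippocampus. Outside the vessel wall, astrocytes led the protease inhibitor Timp4 in both preparations, at 452 and 515 CPM, and oligodendrocytes the laminin-binding integrin Itgb4, at 33.3 and 89.5 CPM.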

How the data were processed

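The cells of 3 mice per preparation were pooled and run as 3 technical replicates of a 10x Chromium library. Per the labels and the study's methods, the authors aligned reads to mm10 with Cell Ranger (5.0.1 in the submitters' processing notes, whereas the matrix headers carry 3.0.1 for the cortex and 3.1.0 for the hippocampus) and deposited filtered matrices of raw UMI counts per gene and barcode. The cortex held 17937 barcodes and the hippocampus 15336, and 0 columns lacked a sample. A further preparation, prep 2, was not analysed here.

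Kept barcodes had between 250 and 6000 genes, with mitochondrial UMIs below 25%, or 15% in vascular clusters. The 61 genes were taken out of the matrix, and the replicates were log-normalized and integrated by canonical correlation with Seurat 5.3.0 under R 4.3.3, with 2000 variable genes, 30 dimensions and a resolution of 0.5. Pearson-residual scaling and SingleR, a reference-based classifier, were not used. Clusters were named when at least 3 markers of a class were found in 20% of cells and the 10 leading genes did not go against the name, and vascular cells were clustered again. Doublets were scored with Scrublet (0.8% per 1000 barcodes) through scanpy 1.11.5, and the 817 cortex and 617 hippocampus barcodes called were kept. Across the 2 preparations 69 barcodes recurred.

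UMIs were summed by class and replicate over classes of at least 20 cells and divided by all UMIs of those cells (CPM) with Python 3.11.15, NumPy 2.4.6, SciPy 1.17.1 and pandas 2.3.3. With 1 biological sample per group no p-value was computed. Intervals are exact at 95% and the floor for a count of 0 is 3 UMIs. The counting steps were tested on simulated data. Named with values were 40 members, namely fixed basement membrane and fibrillar sets and, for each class, segment and comparison, up to 3 further members by the size of the ratio. Other members and pathway genes named were chosen after their values were seen. The members and lists were chosen with earlier results of these data known. Alternatives covered clustering, cell filters, depth, the UMI minimum and the fold. Single values of 1 member are not reported here.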

Additional observations from a re-analysis of the deposited data

Results flagged for a closer look

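For 3 of the 32 members counted in both preparations the ratio of endothelial cells to pericytes lay on opposite sides in the cortex and the hippocampus, with every technical replicate of each preparation on its own side. The share of all genes that did so was not computed, so this count is not read as particular to the members. The log2 ratio of Col18a1 was -2.21 (counting interval -2.64 to -1.74) in the cortex and 1.11 (0.37 to 1.97) in the hippocampus. The hippocampus value rests on 15 pericyte UMIs. Cortex pericytes also held more of the VSMC marker Acta2, 636 against 32.2 CPM, and its part in the Col18a1 ratios was not tested. For Agrn the log2 ratio was -0.28 (-0.51 to -0.04) in the cortex and 0.35 (0.18 to 0.53) in the hippocampus. For Hspg2 it was -0.19 (-0.48 to 0.11) and 0.80 (0.54 to 1.08). The cortex interval of Hspg2 thus covered both sides, and no ratio of Agrn or Hspg2 reached 2-fold. The difference between preparations was not tested, since each is 1 biological sample.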

How the results depend on the processing

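No paired analysis was possible because the replicate numbers mark technical runs of a single pool in each preparation and no result comes from a test. Counts of genes and correlations over classes were recomputed 350 times over 26 results and 25 settings, 3 of them chosen after seeing the data, and 297 stayed within 1.5 times the reported count or 1 SD of the reported correlation. With barcodes shared between libraries left out, 0 of these moved further. The microglial count between preparations, 15 as reported, was 1 when the 61 genes could enter the variable genes, 4 at a resolution of 0.2, 1 at 1.0, 1 without integration, 1 at a 10% mitochondrial limit, 3 with cells classed by their own markers, 5 without cells whose markers name another class (chosen after seeing the data), 7 at 100 UMIs and 1 when thinned.

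Several counts fell at a higher UMI minimum or when cells were thinned. At 100 UMIs members led in the cortex numbered 13 (22 as reported), fibroblast-led members 7 in each preparation (16 and 12), pathway genes led in the cortex 12 (19), cortex genes on the pericyte side 13 (21), hippocampus genes on the endothelial side 5 (8), and members differing between preparations 5 in endothelial cells (8), 3 in VSMCs (6) and 1 in fibroblasts (4). Thinned to 1000 UMIs, 7 and 4 were led (22 and 18), 2 and 3 by fibroblasts, 11 and 11 were on the pericyte side (21 and 18) and 2 and 2 on the endothelial side (4 and 8), and 3 differed in endothelial cells, 4 in pericytes (9), 3 in VSMCs and 0 in fibroblasts. By construction the higher minimum admits fewer genes, and thinning leaves fewer UMIs per gene.

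At 1.5-fold, 12 members differed in astrocytes (4) and 13 in VSMCs. At 3-fold, 14 members were led in the cortex, 11 and 9 pathway genes were led (19 and 14), and 5 members differed in endothelial cells, 2 in pericytes, 2 in fibroblasts and 1 in astrocytes. At a 10% mitochondrial limit the endothelial side held 1 and 5 genes and 12 differed in fibroblasts, against 2 with a 25% limit for vascular cells. At a resolution of 0.2 the cortex endothelial side held 2. Leaving out non-endothelial cells with over 0.1% endothelial marker UMIs, which left 1 and 9 fibroblasts, gave 14 led in the cortex. Without angiogenic cells, chosen after seeing the data, 5 differed in endothelial cells. The cause was not tested for the changes with clustering and mitochondrial limit.

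Leaving out each replicate moved the cortex count led by pericytes between 2 and 4 (without cortex replicate 2) and that led by endothelial cells between 0 and 1 (without cortex replicate 1), the fibroblast count between preparations between 2 (without cortex replicate 3) and 8 (without cortex replicate 1), and r between 0.867 and 0.995 for Col4a1 and Col4a2 and between 0.442 (without cortex replicate 2) and 0.797 for Col4a3 and Col4a4 in the cortex, and between 0.824 and 0.929 for Col6a1 and Col6a2 in the hippocampus. Of 4811 recomputed single-gene log2 ratios 4035 stayed within 1 SD of the replicates and 772 moved by more. A turn in sign was recorded only for ratios called as led or different, and 4 of these turned. Nid1 (0.018) and Hspg2 (0.21) did so in microglia at a resolution of 0.2. Lama2 (1.05) did so in VSMCs at a 10% mitochondrial limit, and Lamb1 (0.025) in endothelial cells without angiogenic cells. Other ratios that changed sign are among the 4035 and 772. For Col14a1 in the cortex, the ratio of endothelial cells over pericytes was -2.97 and reached 0.53 when a replicate was left out.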
